A study of Bos taurus with 252 samples.

Results

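Platelet and megakaryocyte genes are followed here through the blood of feedlot steers that were given one of several antimicrobials on arrival, or none. The group holds 8 genes chosen by symbol, namely PF4, PPBP, ITGA2B, ITGB3, GP9, GP1BA, TUBB1 and TREML1, out of 33282 genes in the count table. All 8 were present, and all 8 were among the 19056 genes that passed the filter on low counts (above 0.2 CPM, counts per 1000000 of the library, in at least 12 libraries) and were tested. Another 74 genes with known roles in platelets or megakaryocytes were listed beside them, and 70 of these were tested.

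Platelets are cell fragments shed by megakaryocytes, large cells of the bone marrow. They have no nucleus and carry the RNA that the megakaryocyte left in them. Transcripts of such genes can therefore reach whole blood with the platelets of the sample. Some genes on the lists below are also made in other blood cells, and the source of the transcripts was not tested. Platelets stop bleeding by sticking to damaged vessels, binding fibrinogen and releasing granules, and the chemokines in those granules also act on white blood cells, which is why these genes are of interest in cattle at risk of bovine respiratory disease. PF4 (platelet factor 4) and PPBP (pro-platelet basic protein) are granule chemokines. ITGA2B and ITGB3 encode the α and β chains of the fibrinogen receptor. GP1BA and GP9 encode chains of the receptor for von Willebrand factor. TREML1 is a receptor of the granule membrane, and TUBB1 is the β-tubulin of the ring of microtubules that keeps the platelet flat. In whole blood, fewer platelets and less RNA per platelet cannot be told apart, and a share of the RNA also falls when other cells add RNA.

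Whole blood from 42 crossbred steers was collected into RNA-stabilizing tubes on day 0 and then 3, 7, 14, 21 and finally 56 days later, which gave 1 stranded mRNA library per steer and day. There were 7 groups of 6 steers: untreated negative controls (NC), and steers given the macrolides tulathromycin (TULA) or tildipirosin (TILD), the cephalosporin ceftiofur (CEFT), the fluoroquinolone enrofloxacin (ENRO), florfenicol (FLOR) or the tetracycline oxytetracycline (OXYT) in a single subcutaneous dose after the day 0 blood was drawn. Every steer, the NC steers included, had received tildipirosin, a growth implant, antiparasitic drugs and vaccines when backgrounding began, weeks before arrival. Each treatment occupied 1 pen and groups were sampled in a fixed order, so pen, order and treatment cannot be told apart. The lane of the sequencer also followed the groups. NC and ENRO were on lane 1, TULA on lane 2, and CEFT and OXYT on lane 3, while FLOR and TILD were spread over 2 lanes, and so CEFT, OXYT, TULA and TILD shared no lane with NC.

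Library totals lay between 26.1 M and 74.1 M counts (M, 1000000), with a median of 43.6 M, and no pair of libraries held identical counts. The hemoglobin genes took between 0.00393% and 25.5% of a library, and their median share rose from 0.224% on day 0 to 3.35% on day 21 before it was 0.334% on day 56. Values below are CPM after TMM scaling (trimmed mean of M-values), which sets gene totals against library size but not against transcript length, so levels are compared between samples and not between genes. Fold changes are log2 values with their standard error (SE), and adjusted p is the Benjamini-Hochberg value over all 19056 genes.

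The chemokine PF4 was found in every library, from 54.9 to 1583 CPM with a median of 316 CPM. PPBP ranged from 5.96 to 481 CPM with a median of 51.8 CPM. The highest values of both PF4 and PPBP came from 1 library, that of the steer FLOR 8 on day 7. ITGA2B had the narrowest range of the 8 genes, from 86.3 to 201 CPM around a median of 132 CPM. ITGB3, which encodes the partner chain of the same receptor, ranged from 27.95 to 498 CPM (median 137 CPM). TUBB1 ranged from 102 to 1309 CPM with a median of 437 CPM. These 5 genes were counted well above the noise of sampling in every library.

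The other 3 genes were rarer. GP9 ranged from 0.906 to 98.9 CPM (median 7.88 CPM) and TREML1 from 0 to 58.98 CPM (median 9.05 CPM). TREML1 had no count in 1 library, steer OXYT 9 on day 21, and 2 counts in TULA 3 on day 7. GP1BA was the lowest, with a median of 0.502 CPM or 22 counts. It had 0 counts in 14 libraries, 5 of them from the steer CEFT 3, and under 10 counts in 49 libraries. A count of 0 allows up to 3 counts, which is 0.0405 CPM in the deepest library and 0.115 CPM in the shallowest. These bounds hold for counts of 0 only. At a median of 22 counts, single values of GP1BA also carried a counting error that the bounds leave out.

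**Figure D1:**
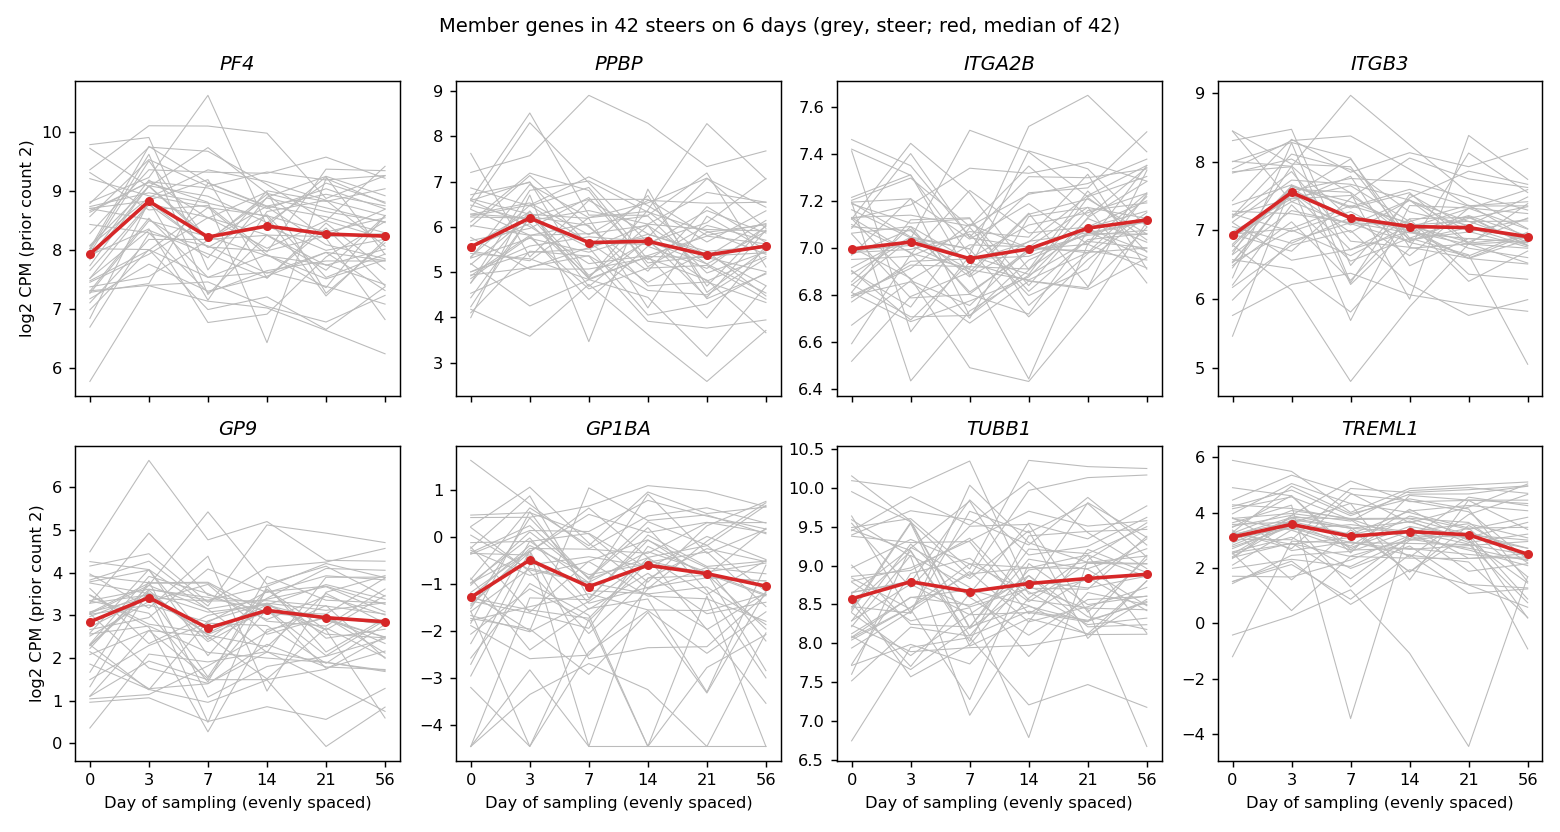
Each panel plots 1 gene as log2 CPM (prior count 2, y axis) against the day of sampling (x axis, days evenly spaced), with 1 grey line per steer, the median of 42 steers in red and a y range of its own. The red line rises from day 0 to day 3 for PF4, from 245 to 456 CPM, while the narrow y range of ITGA2B holds medians between 124 and 139 CPM.

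The first comparison asked whether these genes changed over the 56 days in all steers. On day 3 most of the platelet genes were higher than on day 0, over all groups, and on day 7 PF4 alone was still called above day 0. The effect of day, an F test over the 5 later days with steer as a block, passed an FDR of 0.05 for 6 of 8 genes, where 77% of all tested genes passed. On day 3 against day 0, 6 of 8 genes were higher and none was lower, where 20.5% of all tested genes were higher and 18.3% lower. The median log2 change of the 8 genes was 0.44, against 0.02 over all genes tested.

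The granule chemokines rose on day 3. PF4 was at 54.9, 245 and 887 CPM on day 0 (lowest, median and highest of 42 steers) and at 169, 456 and 1108 CPM on day 3. The ranges of both days overlapped, but 36 of 42 steers were higher on day 3 than on day 0. Its log2 change was 0.71 ± 0.11 (SE), a 1.64-fold rise (edgeR quasi-likelihood test, adjusted p = 5.95e-08). PPBP went from 15.9, 47.1 and 198 CPM to 11.96, 73.4 and 367 CPM. It was higher in 28 of 42 steers, by 0.47 ± 0.15 (adjusted p = 0.0068).

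The chains of the fibrinogen receptor did not move alike. ITGB3 was at 44.1, 122 and 348 CPM on day 0 and at 70.2, 188 and 354 CPM on day 3, higher in 32 of 42 steers. Its log2 change was 0.43 ± 0.10, or 1.35-fold (adjusted p = 0.00012). ITGA2B was at 91.6, 128 and 176 CPM on day 0 and at 86.5, 130.2 and 174 CPM on day 3, and its log2 change of -0.0005 had an SE of 0.03 and an adjusted p of 0.993. No test was made of the difference between the chains.

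The genes of the von Willebrand factor receptor and TREML1 also rose, from lower counts. GP9 was at 1.24, 7.18 and 22.4 CPM on day 0 and at 2.05, 10.6 and 98.9 CPM on day 3, and 30 of 42 steers were higher. Its log2 change was 0.44 ± 0.15 (adjusted p = 0.00865). GP1BA had medians of 0.366 CPM on day 0 and 0.673 CPM on day 3, was higher in 27 of 42 steers and changed by 0.55 ± 0.20 (adjusted p = 0.0188). TREML1 had medians of 8.61 and 11.8 CPM, was higher in 31 of 42 steers and changed by 0.43 ± 0.18 (adjusted p = 0.0454). Fitted to the TULA steers alone, the log2 change was below 0 for GP1BA (-0.33), GP9 (-0.13) and TREML1 (-0.25), and in ENRO that of GP1BA was -0.0786. In FLOR that of PPBP was -0.43, and none of these values passed. The TREML1 call was the least firm of the 6, since its adjusted p was 0.0528 without the steers CEFT 3 and OXYT 9 and between 0.0502 and 0.262 with other scaling, without the filter, without the block or by limma voom. GP1BA had an adjusted p of 0.278 without the block and of 0.0825 by limma voom. Without CEFT 3 and OXYT 9, which stood low in most of the genes, 5 of 8 genes were higher on day 3 and 7 of 8 passed the effect of day. The shares over all genes in that fit are not given here, and over all steers 77% of all genes passed the effect of day. TUBB1 had medians of 381 CPM on day 0 and 443 CPM on day 3, and its change of 0.15 ± 0.11 did not pass (adjusted p = 0.279).

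**Figure D2:**
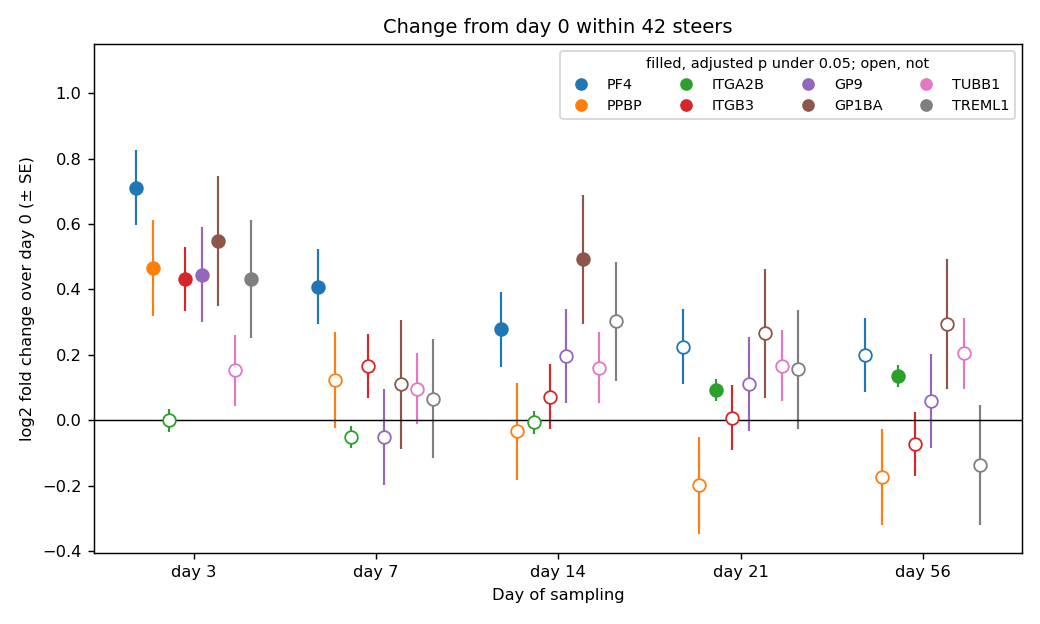
Log2 fold change over day 0 (y axis, ± SE) on each later day (x axis) for the 8 genes, from the fit to 42 steers, with filled points for an adjusted p under 0.05. PF4 has the highest point on day 3, at 0.71, and from day 7 on all genes lie between -0.20 and 0.49.

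From day 3 to day 7 the level went down again for 3 of 8 genes, where 10.9% of all tested genes were lower. GP9 fell by 0.50 ± 0.15 on the log2 scale (adjusted p = 0.0076), from a median of 10.6 CPM to one of 6.47 CPM, and was lower in 31 of 42 steers. PF4 fell by 0.30 ± 0.11 (adjusted p = 0.0451), also lower in 31 of 42 steers. ITGB3 fell by 0.27 ± 0.10 (adjusted p = 0.0405) and was lower in 27 of 42 steers. The falls of PF4 and ITGB3 were close to the threshold, and PF4 had an adjusted p of 0.0509 without CEFT 3 and OXYT 9. None of the 3 falls passed without steer as a block or by limma voom.

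At later days few of the genes differed from day 0, although the share of all tested genes that did was larger than on day 3. On day 7 only PF4 was called above day 0 (0.41 ± 0.11, adjusted p = 0.00168, 33 of 42 steers), where 24% of all genes were higher. On day 14 it was PF4 (0.28 ± 0.11, adjusted p = 0.0272) and GP1BA (0.49 ± 0.20, adjusted p = 0.0227), where 32.7% were higher. On days 21 and 56 only ITGA2B passed, and 32.6% and 32.5% of all genes were higher on those days. ITGA2B was higher in 30 of 42 steers on day 21 and in 31 of 42 on day 56. The change on day 56 was small, 0.14 ± 0.03 or 1.10-fold (adjusted p = 0.000224), with medians of 128 CPM on day 0 and 139 CPM on day 56. ITGA2B, flat on day 3, was the only one of the 8 called above day 0 at the end. Larger changes on day 56, with a wider SE, did not pass for GP1BA (0.29 ± 0.20), TUBB1 (0.20 ± 0.11) and PF4 (0.20 ± 0.11). None of the 8 was called below day 0 on any day by this test.

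Few of these calls were made in single groups. In fits to the 6 steers of a group, PF4 in CEFT was the only call on day 3 (0.91 ± 0.30, adjusted p = 0.0323), where 10.5% of all genes were higher in CEFT, although PF4 was higher in 5 of 6 steers of every treated group and in 6 of 6 NC steers. On lane 2 alone PF4 (0.76 ± 0.21) and ITGB3 (0.48 ± 0.18) were higher on day 3, where 11% of all genes were. On lane 3 alone PF4 (0.76 ± 0.18), GP9 (0.86 ± 0.26) and GP1BA (1.12 ± 0.35) were higher, where 11.2% were, and on lane 1 alone, where 2.6% were, no member passed by edgeR's quasi-likelihood test, with 3 of 8 at an unadjusted p under 0.05. The share of all genes on lane 1 at an unadjusted p under 0.05 is not given here. Each lane held 14 steers, and the rise of PF4 was called on 2 of 3 lanes.

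NC steers had no antimicrobial in the trial, and their days give the course without it. Over the 6 NC steers the effect of day passed for 1 of 8 genes, PF4 (adjusted p = 0.00703), where 27.6% of all genes passed. The count was 3 without the steer NC 5, 2 without NC 12 and 0 without the block, and the shares over all genes in those fits are not given here. PF4 was at 145, 171 and 381 CPM on day 0, at 173, 231 and 745 CPM on day 3 and at 159, 460 and 660 CPM on day 7. All 6 NC steers were above their own day 0 on days 3, 7, 14 and 21. The log2 change was 0.997 ± 0.22 on day 7 (adjusted p = 0.0148), where 0.719% of all genes were higher, 0.95 ± 0.22 on day 14 (adjusted p = 0.00209) and 0.87 ± 0.21 on day 21 (adjusted p = 0.00556). On day 3 no member passed in NC by edgeR's quasi-likelihood test, and 0.0262% of all genes were called. An unadjusted p under 0.05 was found for 4 of 8, and the share of all genes at that level is not given here.

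ITGB3 and GP1BA joined PF4 in the NC steers on days 14 and 21, where 12.4% and 9.91% of all genes were higher. ITGB3 was at 89.8, 119 and 173 CPM on day 0 and at 118, 176 and 280 CPM on day 14. It was higher by 0.64 ± 0.19 on day 14 (adjusted p = 0.0126) and by 0.57 ± 0.19 on day 21 (adjusted p = 0.0312). GP1BA was at 0, 0.357 and 0.735 CPM on day 0 and at 0.631, 0.911 and 1.68 CPM on day 14, higher by 1.48 ± 0.39 (adjusted p = 0.00612) and on day 21 by 1.27 ± 0.39 (adjusted p = 0.0204). The day 21 calls were not all kept when a steer was left out. Of the 3, 1 was left without NC 1 or without NC 7, and between 1 and 2 without each of the 6 in turn. Those fits hold fewer steers. On day 56 none passed in NC by this test, where 12.7% of all genes were higher. An unadjusted p under 0.05 was found for 5 of 8, and the share of all genes at that level is not given here.

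Other blood cells changed over the same days. On day 3 against day 0, 6 of 8 red cell markers and 5 of 6 T cell markers were higher. Lower were 5 of 6 neutrophil markers, 2 of 5 monocyte markers and PTPRC, which all white blood cells carry. Of 5 B cell markers 3 were higher and 1 lower. Of 5 markers of natural killer and cytotoxic cells 1 was higher and 2 were lower. Over all tested genes 20.5% were higher and 18.3% lower. The summed red cell markers ranged from 39.4 to 39311 CPM on day 0 and from 206 to 332645 CPM on day 3. The summed neutrophil markers ranged from 1974 to 6386 CPM on day 0 and from 1805 to 5557 CPM on day 3. The 6 markers of endothelial cells, which make some platelet proteins, summed to at most 21.6 CPM in any library, and 1 of 6 was called higher on day 3. Within steers, the summed markers of these lists had Spearman's rho between -0.13 and 0.15 with every member, over all libraries, and PTPRC had -0.29 with PF4, -0.25 with GP9, -0.27 with TREML1 and 0.24 with ITGA2B. The part of these cells in the changes with day was not tested. With the hemoglobin genes left out before scaling, the day 3 calls of all 6 genes and the falls of all 3 to day 7 were again past the threshold.

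The other platelet genes changed in both directions. Of the 70 tested, 58 passed the effect of day, against 77% of all genes. On day 3, 23 of 70 were higher and 11 lower, with a median log2 change of 0.09, and of all genes 20.5% were higher and 18.3% lower. Between day 3 and day 7, 3 of 70 were higher and 20 lower, against 8.54% and 10.9% of all genes. On day 56 against day 0, 19 of 70 were higher and 25 lower, against 32.5% and 30.7% of all genes.

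Among surface receptors 17 of 21 passed the effect of day, where 77% of all genes did. By the sign on day 56, 7 were higher and 10 lower. The thromboxane receptor TBXA2R was higher on day 56 by 0.49 ± 0.04 (adjusted p = 1.23e-23) and MPIG6B, an inhibitory receptor of megakaryocytes and platelets, by 0.45 ± 0.12 (adjusted p = 0.00034). MPIG6B had already risen by 0.49 ± 0.12 on day 3. LY6G6F had a day 56 value of 0.50 ± 0.26, which did not pass. P2RY12, the ADP receptor, was lower by 0.77 ± 0.14 on day 56 (adjusted p = 2.89e-07), and CD36, which monocytes also carry, fell by 1.46 ± 0.37 from a median of 0.202 CPM. CLEC1B, the receptor for podoplanin, fell by 2.43 ± 0.48 on the log2 scale, but its median over all libraries was 0 CPM.

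Among granule and secreted proteins 14 of 16 passed the effect of day, where 77% of all genes did. SPARC was higher on day 56 by 0.999 ± 0.30 (adjusted p = 0.00211) and on day 3 by 0.89 ± 0.31 (adjusted p = 0.015). The growth factor gene PDGFA was higher by 0.67 ± 0.07 and NRGN, a calmodulin-binding protein, by 0.49 ± 0.10 on day 56. THBS1, the granule protein thrombospondin 1 that monocytes also make, was lower by 1.17 ± 0.14 on day 56 and by 0.82 ± 0.13 on day 3. The coagulation factor gene F5 was lower by 0.40 ± 0.06 on day 56. ANGPT1 had a value of -0.55 ± 0.34 on day 56, which did not pass.

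Of the cytoskeletal genes 7 of 9 passed the effect of day, against 77% of all genes. MYL9, the myosin light chain that works in platelet contraction, was higher by 0.70 ± 0.10 on day 3 (adjusted p = 5.15e-09) and by 0.64 ± 0.10 on day 56, and the α-tubulin gene TUBA4A by 0.36 ± 0.08 and 0.48 ± 0.08. CTTN was higher on day 3 by 0.76 ± 0.28 at a median of 0.305 CPM, and its day 56 value of 0.41 ± 0.27 did not pass. CALD1, an actin-binding protein, was lower on day 56 by 0.42 ± 0.10, and LIMS1, an adaptor of integrin adhesions, by 0.34 ± 0.05. PARVB, another adaptor of integrin adhesions, had a day 56 value of -0.06 ± 0.09.

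Of the signalling genes and enzymes 11 of 15 passed the effect of day, against 77% of all genes. RASGRP2, which activates the small GTPase that switches platelet integrins on, was higher on day 56 by 0.47 ± 0.03, PTGS1, the cyclooxygenase of platelets, by 0.30 ± 0.10 and SLC24A3 by 0.20 ± 0.08. TBXAS1, which makes thromboxane, was lower by 0.48 ± 0.06, RAB27B, a GTPase of granule release, by 0.46 ± 0.06 and PLEK by 0.44 ± 0.07. All 9 megakaryocyte transcription factors passed, against the same 77% of all genes. GATA1 was higher on day 56 by 1.03 ± 0.13 (adjusted p = 2.25e-13), GFI1B by 0.76 ± 0.10 and ZFPM1, the partner of GATA1, by 0.65 ± 0.05. RUNX1 was lower by 0.29 ± 0.04, FLI1 by 0.24 ± 0.02 and MEIS1 by 0.32 ± 0.10. GATA1, GFI1B and ZFPM1 also act in red cell precursors, and RUNX1 and FLI1 are made in white blood cells.

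The 8 genes differed far more between steers than between days. Steers took between 42.9% and 64.02% of the variance of each gene's log2 CPM, and days between 1.23% (TUBB1) and 10.1% (ITGA2B), while the medians over all tested genes were 38.6% for steers and 8.36% for days. Steer means over 6 days ranged from 112 to 829 CPM for PF4, from 14.7 to 249.8 CPM for PPBP, from 1.82 to 37.3 CPM for GP9 and from 1.28 to 35.8 CPM for TREML1. For ITGA2B they ranged only from 111 to 168 CPM. The SD of log2 CPM over all libraries was 0.21 for ITGA2B, at the 9.89th percentile of all tested genes, and between 0.63 (ITGB3) and 1.35 (TREML1) for the other 7.

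Some steers were low or high in nearly all of the genes. OXYT 9 and NC 15 lay among the 14 lowest of the 42 steers for 8 of 8 genes and CEFT 3 for 7 of 8, with the lowest steer mean of all for PF4, PPBP, GP1BA and TUBB1. FLOR 8 had the highest steer mean for PPBP (249.8 CPM) and ITGB3 (274 CPM), OXYT 5 for PF4 (829 CPM) and GP9 (37.3 CPM), and TULA 4 for ITGA2B (168 CPM) and TUBB1 (960 CPM). The 5 steers with the highest mean rank over the 8 genes came from FLOR, OXYT, ENRO and TULA, and none of them was among the 14 lowest for any of the 8 genes.

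Steer means of the 8 genes rose and fell together. Of the 28 pairs, 24 passed an FDR of 0.05 by Spearman's rho (permutation test with 100000 resamples, two-sided, 42 steers), and the median rho was 0.50. The highest rho, 0.67, joined ITGB3 and TUBB1 (Pearson's r = 0.64, permutation tests, adjusted p = 9.33e-05 and 5.6e-05), and r was 0.72 without the 2 steers farthest from the median. On the lanes alone, of 14 steers each, it was 0.81, 0.41 and 0.66. GP9 was close to GP1BA (rho 0.66, r 0.59, adjusted p = 9.33e-05 and 8e-05), with r of 0.55 without the 2 farthest steers and of 0.40, 0.55 and 0.73 on the lanes. GP9 and TREML1 had a rho of 0.66 and an r of 0.65 (adjusted p = 9.33e-05 and 5.6e-05), with 0.61 without the 2 farthest steers and 0.60, 0.73 and 0.61 on the lanes. Steers high in the genes of the von Willebrand factor receptor were mostly also high in the granule receptor gene TREML1.

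ITGA2B stood apart in this respect too. Of its 7 pairs 4 passed, with a median rho of 0.34, against 20 of 21 pairs without it and a median of 0.55. Its rho with ITGB3, the other chain of the receptor, was 0.19 and the lowest of all pairs (r = 0.15, permutation test, adjusted p = 0.237 and 0.343). Without the 2 farthest steers r was 0.14, and on the lanes it was 0.12, 0.05 and 0.08. The pairs that involve TUBB1 (rho 0.48) and GP9 (rho 0.47) passed. Deviations within steers, after each steer's mean and each day's mean were taken off, had a median rho of 0.16 for the pairs with ITGA2B and of 0.49 for the others over all libraries. The highest of these was 0.74, between PF4 and ITGB3. These are descriptions, since libraries of a steer share the animal and genes of a library share its depth and cell mix.

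**Figure D3:**
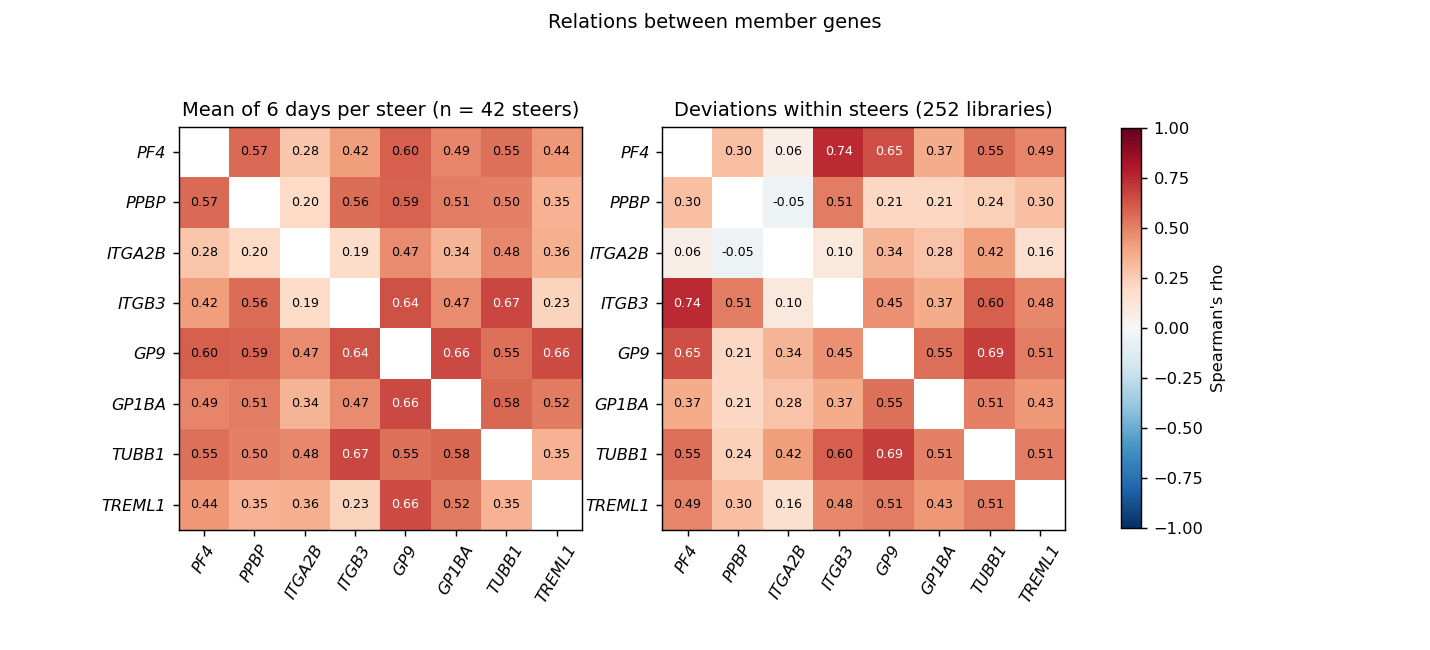
Spearman's rho between each pair of the 8 genes (both axes list the genes and the colour gives rho), on the left for the means of 42 steers and on the right for deviations within steers over all libraries. The ITGA2B row is the palest in both panels, with medians of 0.34 and 0.16, and the PF4 and ITGB3 cell on the right is the darkest of the other pairs, at 0.74.

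The genes outside the 8 whose deviations within steers were most like them were named by the median rho with the 8 genes over all libraries. They were LOC104974750 (0.64), TSPAN17 (0.64), MYL9 (0.63), PDLIM1 (0.63), RSU1 (0.62), CLU (0.61), LTC4S (0.61), PARVB (0.61), FHL1 (0.61) and F2RL3 (0.61). MYL9, CLU, PARVB and F2RL3 were on the platelet lists, F2RL3 being a thrombin receptor of platelets and CLU a granule protein. RSU1 and PDLIM1 are adaptors of the actin cytoskeleton and LTC4S makes leukotriene C4. Most listed platelet genes were far less alike. Over 69 of them the median rho with a member was between 0.07 (PPBP) and 0.19 (GP9). Over all genes that median was between -0.01 (GP9) and 0.01 (ITGA2B).

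Single members had closer neighbours. TUBB1 had a rho of 0.92 with FHL1 and with MPIG6B. ITGB3 had 0.86 with MINDY3 and 0.84 with RGS20, GP9 had 0.85 with CLU and 0.82 with VWF, and PF4 had 0.82 with LOC404103. PPBP reached at most 0.58, also with MINDY3, TREML1 0.68 with PDLIM1 and GP1BA 0.60 with PARVB. ITGA2B was nearest to MYO9B (0.60) and KDM5C (0.59), neither of which is on the platelet lists. None of its 10 nearest genes was on them, which was also so for ITGB3. The median rho with the listed platelet genes was 0.11 for ITGA2B, and also for PF4 and GP1BA. TLN1 and VCL, the talin and vinculin genes, were among the 10 nearest to ITGA2B, at 0.56 and 0.57. Their proteins link integrins to actin in platelets and white blood cells alike.

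The next comparison, at the centre of the study, set each treatment against NC on the same day. No member passed an FDR of 0.1 in any of 36 comparisons (0 of 288 tests, edgeR quasi-likelihood), where 0.508% of all tests passed. An unadjusted p under 0.05 was found in 30 of 288 tests of the members and in 9.24% of all tests. DESeq2 called 7 of 288, where it called 2.95% of all tests, and edgeR's likelihood ratio test 5, where it called 0.922%, all for PPBP or ITGB3 in CEFT, TILD or TULA. The lowest p of all was that of PPBP in CEFT on day 21, at 5.96, 20.7 and 36.3 CPM in CEFT and at 35.5, 75.5 and 146 CPM in NC. Only the highest CEFT steer reached the lowest NC steer. The log2 difference was -1.95 ± 0.46 (edgeR quasi-likelihood test, adjusted p = 0.363). ITGB3 in CEFT on day 21 was at 54.4, 106 and 127 CPM against 140, 162 and 243 CPM in NC, without overlap, and its log2 difference was -0.93 ± 0.23 (edgeR quasi-likelihood test, adjusted p = 0.363).

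Over all days together ITGB3 was lower in CEFT than in NC. Steer means over 6 days of ITGB3 were at 118, 169 and 256 CPM in NC and at 65.99, 90.6 and 139 CPM in CEFT, and the ranges overlapped. The log2 difference, from limma's voom fit in which the steer was a random effect, was -0.81 ± 0.23, a fold of 0.572 (adjusted p = 0.0281). This was 1 call among 8 genes in CEFT, where 3.42% of all genes were called, and 1 of 48 over the 6 treatments, where 1.95% of all tests were called. The call was not firm, since it was lost without CEFT 3 (adjusted p = 0.0773), CEFT 4 (0.113), NC 1 (0.0856) or NC 12 (0.0612). It was kept in 8 of the 12 fits that left out 1 steer. Over the 12 fits the log2 difference stayed between -0.93 and -0.67 and the unadjusted p by voom between 0.000153 and 0.00592. Without CEFT 10 the call was kept at an unadjusted p of 0.00179, and without CEFT 3 it was lost at 0.00114. With lane as a term in the voom fit the log2 difference of ITGB3 was -1.18 ± 0.54, with an adjusted p of 0.56. Treatment and lane cannot be told apart for CEFT.

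PPBP was the next closest. Its steer means were at 33.2, 77.8 and 133 CPM in NC and at 14.7, 38.2 and 51.2 CPM in CEFT, and its log2 difference of -1.10 ± 0.35 was just outside the threshold (adjusted p = 0.0506). It passed in 4 of 12 fits that left out 1 steer, namely without CEFT 6, CEFT 8, CEFT 10 or NC 15, and with days 3 to 56 alone (adjusted p = 0.0366). On day 0, before the injection, CEFT was already at -0.55 ± 0.37 for PPBP and at -0.33 ± 0.23 for ITGB3 against NC (edgeR quasi-likelihood test, adjusted p = 0.977 for both). GP1BA (-1.10 ± 0.54), GP9 (-0.75 ± 0.38) and TUBB1 (-0.46 ± 0.25) in CEFT had adjusted p of 0.233, 0.255 and 0.297. The CEFT values of PF4, ITGA2B and TREML1 were -0.26 ± 0.27, 0.03 ± 0.08 and 0.06 ± 0.50.

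The other treatments gave no call. GP1BA in TILD had a difference of -1.26 ± 0.57 (adjusted p = 0.182), and its adjusted p was 0.0378 without the filter on low counts. The other values of FLOR, ENRO and OXYT ranged no further than GP1BA in ENRO at -0.91 ± 0.50 and TREML1 in FLOR at 0.56 ± 0.47. TILD and TULA are both macrolides but were given at different doses, so their values are set side by side only. PPBP was at -0.56 ± 0.34 in TILD and at -0.63 ± 0.33 in TULA, TUBB1 at -0.06 ± 0.25 and 0.36 ± 0.25, and ITGB3 at -0.19 ± 0.23 and -0.06 ± 0.23.

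**Figure D4:**
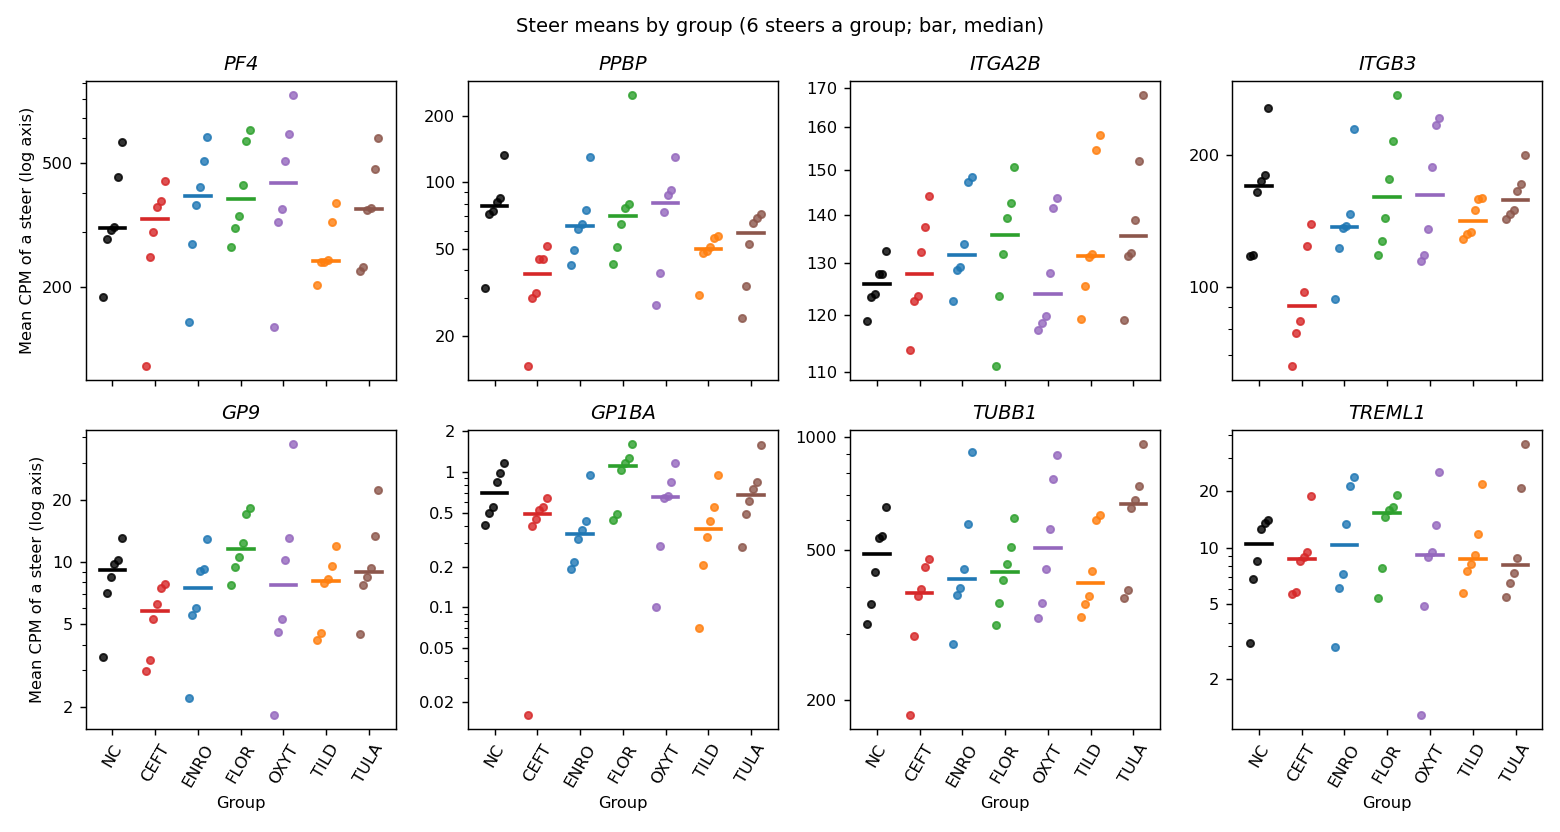
Mean CPM of each steer over 6 days (y axis, log scale) for the 8 genes in the 7 groups (x axis), with 1 point per steer and a bar at the median of 6. For ITGB3 the CEFT points lie between 65.99 and 139 CPM and the NC points between 118 and 256 CPM, and for ITGA2B all 42 points lie between 111 and 168 CPM.

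**Figure D5:**
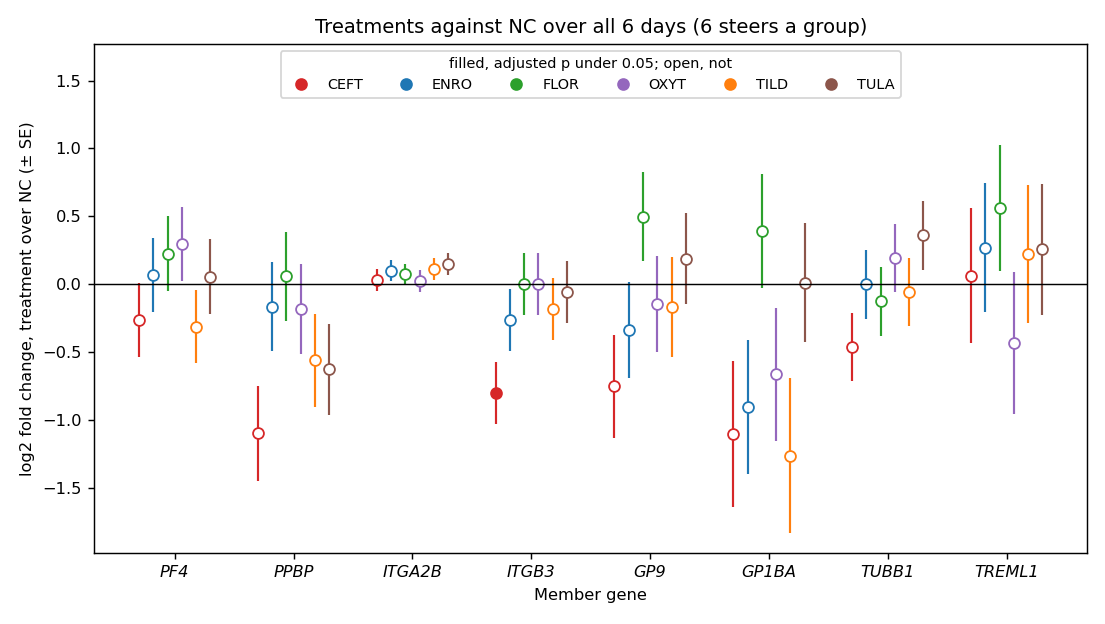
Log2 fold change of each treatment over NC across all 6 days (y axis, ± SE) for the 8 genes (x axis), coloured by treatment. ITGB3 in CEFT, at -0.81, is the only filled point, which marks an adjusted p under 0.05.

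Of the other platelet genes, 10 of 420 tests passed in the comparison over all days, where 1.95% of all tests passed, a share near that of the list. Of the 10, 6 were lower in CEFT, among 70 genes, where 1.83% of all genes were lower. The genes named here were chosen after their values were seen. GNG11 (-0.97 ± 0.24), the guanylate cyclase chain GUCY1B1 (-0.61 ± 0.14), RGS18, a brake on G protein signalling in platelets (-0.59 ± 0.16), and RAB27B (-0.52 ± 0.15) belong to the signalling list. CALD1 (-0.86 ± 0.25) is cytoskeletal and TAL1 (-0.45 ± 0.14) is a transcription factor of megakaryocytes and red cells. In FLOR, CD9, a membrane protein of platelets and other cells, was higher (0.60 ± 0.16) and the tropomyosin TPM1 lower (-0.39 ± 0.11). In TILD, RASGRP2 was higher (0.25 ± 0.07).

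The last comparison asked whether the change from day 0 differed between a treatment and NC, which takes off what steers differed in before the injection. Of 240 tests on the 8 genes 1 passed an FDR of 0.1, PF4 in ENRO on day 7, where 9.41% of all genes were called in that comparison and 0.589% over all 30 comparisons. The log2 change of PF4 from day 0 to day 7 was 0.13, 0.94 and 1.85 in the NC steers and -2.12, 0.03 and 1.204 in the ENRO steers. It was above 0 in 6 of 6 NC steers and in 4 of 6 ENRO steers, and the ranges overlapped. The difference was -1.10 ± 0.42 (edgeR quasi-likelihood test, adjusted p = 0.0974), close to the threshold, and no call was left among the 240 with RLE scaling (size factors taken from median ratios), without the filter on low counts or by limma voom. The same NC steers stand in each comparison, and the day 7 value of PF4 was -0.95 ± 0.42 for TULA, -0.73 ± 0.41 for TILD, -0.70 ± 0.42 for CEFT, -0.62 ± 0.41 for OXYT and -0.17 ± 0.41 for FLOR, none of which passed. The F tests over the 5 later days gave 0 calls of 48 at an FDR of 0.05 by edgeR's quasi-likelihood test, where 2.14% of all such tests passed, with at most 2 of 8 genes of a treatment at an unadjusted p under 0.05. An unadjusted p under 0.05 was found in 24 of the 240 tests. The share of all genes at an unadjusted p under 0.05 is not given here for either count.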

How the data were processed

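Counts per gene of whole blood libraries from 42 steers on 6 days were analysed. All columns were matched to steer, day and treatment by title, and the lane was read from the column header. The deposited counts were made by the authors, who trimmed reads with Trimmomatic 0.39, aligned them with HISAT2 (2.1.1 in the submitters' processing notes) to ARS-UCD1.3, assembled transcripts with StringTie 2.2.0 and turned coverage into whole-number count estimates, without scaling or lane adjustment. The annotation release is not given in the sources used here. The symbols carry no coordinates and none are given.

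The tools were sva 3.50.0, DESeq2 1.42.0, limma 3.58.1 and edgeR 4.0.16 under R 4.3.3, and scipy 1.17.1 under Python 3.11.15. Of 33282 genes, the 19056 that exceeded 0.2 CPM in 12 or more libraries entered the tests. Totals between 26.1 M and 74.1 M counts (M, 1000000) make counting error small except for GP1BA. Days were compared by edgeR's quasi-likelihood test, blocked by steer (FDR 0.05). The block pairs libraries of 1 animal. Over 500 genes the deviations of 2 libraries from the same steer correlated with a median of 0.355, against -0.0883 for other steers of the group, and 42 of 42 steers had a mean above 0.1. Equal numbers in separate groups name animals and pair nothing. Each treatment was set against NC within a day by the same test without a block (FDR 0.1). The group effect used limma's voom, in which the steer was a random effect (FDR 0.05). The change from day 0 used edgeR again, blocked by steer (FDR 0.1, F tests 0.05). In that last fit, and in the one without 2 steers, the dispersion trend was estimated from every 10th gene to save time. The likelihood ratio test and ComBat_seq by lane, which the study used, were alternatives, with RLE scaling, no filter, no hemoglobin genes and leaving out steers. The scripts were tested on simulated data. Correlations were taken on log2 CPM, prior count 2.

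The 8 members and the gene and marker lists were chosen with earlier results of these data known. Named beside the members were, for each list, the 3 largest and 3 most negative changes on day 56 among genes past the effect of day, and the 10 genes most like the members. Of the lists, GP1BB, ABCC4, CSF3R and GNLY matched no row, IRAG1 was matched as MRVI1, and EGF, CMTM5 and CA1 did not pass the filter. 1 call of the platelet lists in TILD is counted but not reported here.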

Additional observations from a re-analysis of the deposited data

Results flagged for a closer look

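In 29 of 336 sets of 6 steers (1 gene, group and day each), 1 steer stood apart from the other 5 by Dixon's criterion for the gap over the range. Chance alone gives about 1 in 20 sets, and the sets share steers. Values are CPM. The steer FLOR 8 was the highest for PPBP on day 7 (481) and day 56 (205) and for TUBB1 on day 21 (891). ENRO 2 was the highest for ITGB3 on day 56 (203), for GP1BA on day 56 (1.08) and for TUBB1 on day 21 (1120) and day 56 (1150). Other high values were TUBB1 in OXYT 5 on day 14 (1080) and in TULA 4 on day 14 (1310), TREML1 in CEFT 4 on day 3 (33) and ITGB3 in TILD 5 on day 56 (152).

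CEFT 3 was the lowest for PF4 on day 0 (54.9) and had GP1BA at 0 on days 7 and 14. CEFT 10 was the lowest on day 7 for ITGB3 (28) and TUBB1 (135). OXYT 9 had GP1BA at 0 on day 3, and TREML1 at 0.426 on day 14 and at 0 on day 21. NC 15 was the lowest for GP9 on day 7 (2.59) and TREML1 on day 21 (2.06). Single low values were PF4 in ENRO 5 on day 14 (148), ITGA2B in NC 13 on day 0 (91.6), ITGB3 in TILD 5 on day 7 (51.7), GP9 in ENRO 10 on day 14 (2.76) and in TULA 8 on day 0 (2.02), and GP1BA in NC 12 on day 0 (0). TREML1 was low in TILD 10 on day 3 (1.33) and in TULA 3 on day 7 (0.0462).

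The change of PF4 from day 0 to day 7 differed between ENRO and NC by -1.1 on the log2 scale, by the interaction term described above.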

How the results depend on the processing

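With RLE scaling, and with hemoglobin genes left out where that was run, each count of calls except that of the change from day 0 stayed within 1.5 times its value; the hemoglobin alternative was not run for the change from day 0. Of the effect of day, 6 calls over all steers became 3 in OXYT, 2 in ENRO, 1 each in TULA and NC, 0 each in TILD, FLOR and CEFT, and 1 on lane 1, and the 6 genes higher on day 3 became 1 in CEFT, 0 in each other group, 0 on lane 1, 2 on lane 2 and 3 on lane 3, with fewer steers in each fit. On day 3 the direction turned for GP1BA in ENRO (-0.0786) and TULA (-0.33), GP9 in TULA (-0.13), TREML1 in TULA (-0.25) and PPBP in FLOR (-0.43). Of the 3 falls from day 3 to day 7, 1 was left without the filter, 0 without the replicate block and 0 by limma voom. In NC without the block, 0 calls were left for the effect of day and for days 14 and 21, and leaving out 1 NC steer gave 1 to 3, 3 to 4 and 1 to 2 calls. Against NC on each day there were 0 calls, 7 by DESeq2 and 5 by the likelihood ratio test, and 0 with either ComBat_seq fit or lane as a term. The group effect had 1 call, 3 without the filter, 0 with lane as a term, 9 without the block and 2 on days 3 to 56. The change from day 0 had 1 call, and 0 with RLE scaling, 0 without the filter and 0 by limma voom. The steers CEFT 3 and OXYT 9, and the leaving out of CEFT and NC steers from the group effect, were chosen after the data were seen. Pairs of members past the threshold were 23 or 24 of 28 in each alternative. Over all tested genes 77% passed the effect of day in all steers and 27.6% in NC. The share over all genes is not set beside the other counts here, so they do not set the members apart from other genes. Fits to 1 group or lane hold fewer steers, and otherwise the cause of these differences was not tested.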
